A study of Arabidopsis thaliana with 12 samples.

Results

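The response of dorn1-1 roots to ATP was measured as 3 arrays of ATP-treated dorn1-1 roots against 3 arrays of dorn1-1 roots in MES buffer, 6 of the 12 arrays of the study. Every probe set was followed except 64 manufacturer controls, which left 22746 of 22810. Dorn1-1 plants are in the Col-0 background and carry a chemically induced (EMS) mutation in a lectin receptor kinase. The other 6 arrays hold wild-type Col-0 roots with and without ATP. The wild type expressed the calcium reporter aequorin, and whether dorn1-1 also carried it is not stated in the labels. Seedlings of all 4 groups were 5 days old and spent a night in darkness in 2 mM MES with 10 mM CaCl2, before 30 min of ATP or buffer and the harvest of the roots. The ATP dose reads 100 mM in the sample titles and 100 µM in the treatment protocol, and the data do not settle which is right. Each array came from 1 pool of 120 seedlings kept in a single well, and the series' design text calls the 3 replicates of a group biological. One mutant allele was used, so an effect of the receptor and an effect of another mutation in the same line cannot be told apart. The gene of the receptor itself was not analysed here.

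ATP outside plant cells acts as a signal of wounding and stress. It is sensed at the plasma membrane by a receptor kinase with a lectin domain outside the cell, and its perception raises calcium in the cytosol. Calcium sensors, immune and wound genes and cell wall genes are among the genes that follow this signal. The question is what remains of the transcript response when the receptor is mutated.

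Dorn1-1 buffer replicate 1 stood apart: the SD over probe sets of its difference from the mean of the other 2 arrays of its group was 0.546 on the log2 scale, against 0.415 and 0.270 for dorn1-1 buffer replicates 2 and 3 and 0.206 to 0.321 for the arrays of the other groups. Its mean correlation over probe sets was 0.974 with its own group, 0.988 with dorn1-1 ATP arrays and 0.989 with Col-0 ATP arrays. The results were therefore computed with and without this array. The tissue label could be checked on only 2 of 34 root markers, the root hair expansins EXPA7 and EXPA18, whose log2 values lay between 5.76 and 7.31 on all arrays. Transcripts of green tissue were also present, read from 9 nuclear photosynthesis genes, the ones measured of 50 listed. Their mean log2 value lay between 8.57 and 11.4, above the array medians of 6.07 to 6.17. RNA quality was read from the GAPDH and actin controls as the 3' minus 5' log2 difference. The GAPDH value differed by -0.0762 between dorn1-1 ATP and dorn1-1 buffer arrays (exact permutation test, two-sided p = 0.8). It was -0.55, -0.56 and -0.67 in Col-0 ATP arrays and -0.25, -0.36 and -0.15 in Col-0 buffer arrays. These groups did not overlap (exact p = 0.1, the smallest possible), and the part of this difference in the Col-0 response was not tested. The actin value lay between 3.11 and 3.77 on all arrays, while GAPDH values were negative, so the RNA cannot be called intact from GAPDH alone. Actin differed by -0.107 between dorn1-1 ATP and dorn1-1 buffer arrays (exact p = 0.6) and by -0.288 in Col-0 (exact p = 0.2). In such bulk samples, fewer cells of a type and less RNA per cell cannot be told apart.

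With all arrays, no transcript passed the test in dorn1-1 roots. Of 22746 probe sets 0 were called (0.0%), at an adjusted p of 0.05 in limma with Benjamini-Hochberg adjustment, and the lowest adjusted p was 1.00. At an unadjusted p under 0.05, 324 probe sets were higher (1.42%) and 199 were lower (0.875%) in ATP than in buffer. In the wild type, the same fit called 151 probe sets (0.664%), 109 of them higher and 42 lower in ATP. That count was 2316 when dorn1-1 buffer replicate 1 was left out of the shared estimate of the spread and 359 without dorn1-1 buffer replicate 2. It was between 6 and 100 without any 1 of Col-0 buffer replicates 1, 2 and 3, Col-0 ATP replicates 1 and 3, dorn1-1 buffer replicate 3 and dorn1-1 ATP replicate 3.

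The spread of the log2 changes was narrower in dorn1-1 than in Col-0, a comparison without a test. The SD of the log2 change over all probe sets was 0.175 in dorn1-1 and 0.380 in Col-0. It was 0.305 in dorn1-1 without buffer replicate 1. Changes of at least 2-fold numbered 29 in dorn1-1 with all arrays (0.127%), 434 without replicate 1 (1.91%) and 711 in Col-0 (3.13%). In all 29, buffer replicate 1 lay above buffer replicates 2 and 3, and in 0 of the 29 did the ATP arrays all lie above the buffer arrays. Over all 22746 probe sets, the first held for 6799 and the second for 843 (3.71%). Without buffer replicate 1, 422 probe sets were at least 2-fold higher, and the left-out array lay above replicates 2 and 3 in all 422. It lay above all 3 ATP arrays in 346 of them, and in 18.7% of all probe sets. Over probe sets, which are not independent replicates, the dorn1-1 change correlated with the Col-0 change with a Pearson's r of 0.50 (Spearman's rho 0.38) with all arrays and 0.73 (rho 0.58) without replicate 1.

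**Figure D1:**
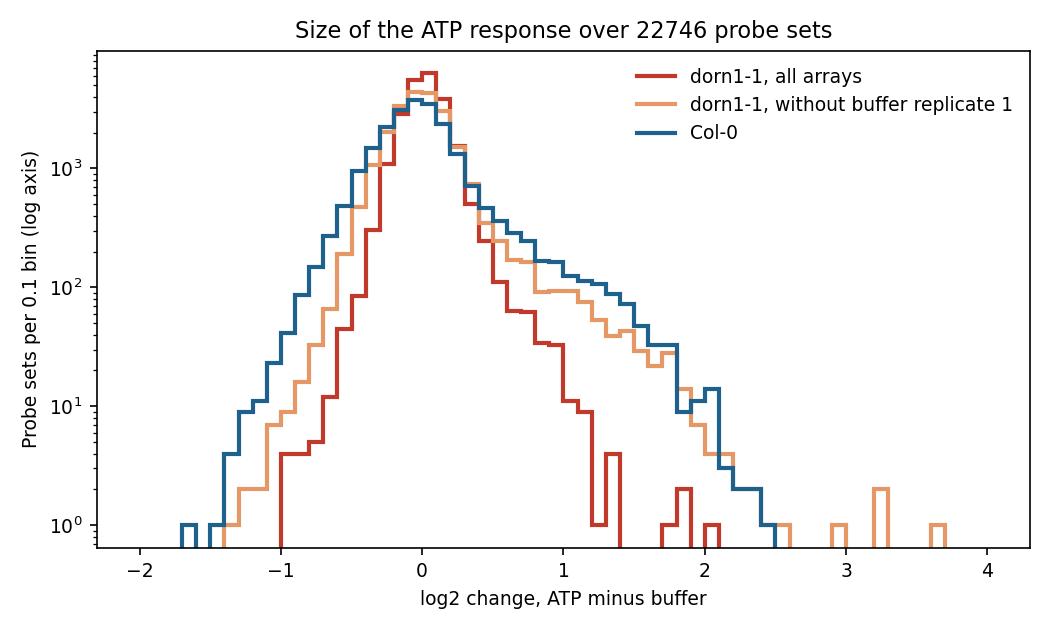
Number of probe sets (y axis, log scale) by log2 change of ATP minus buffer (x axis, bins of equal width) in dorn1-1 with all arrays, in dorn1-1 without buffer replicate 1 and in Col-0. The dorn1-1 distribution with all arrays is the narrowest, with an SD of 0.175, against 0.305 without replicate 1 and 0.380 in Col-0.

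The 109 probe sets that rose in Col-0 changed little in dorn1-1. Their median log2 change was 0.10 in dorn1-1, against 0.95 in Col-0, and the median over all probe sets in dorn1-1 was 0.02. For the median riser, 10.9% of the Col-0 change was left with all arrays and 13.7% without buffer replicate 1. The 95% interval of the dorn1-1 change lay wholly below 50% of the Col-0 change for 59 of the 109 with all arrays and for 50 without replicate 1. The Col-0 estimates were those that chose the probe sets and so are a description. The median was 0.19 without dorn1-1 ATP replicate 2 and 0.0546 without dorn1-1 ATP replicate 3. The change was positive for 84 of the 109 with all arrays and for 89 without buffer replicate 1. Over all 22746 probe sets it was positive for 12752 and 11140. At an unadjusted p under 0.05, 5 of the 109 were higher with all arrays, where 1.42% of all probe sets were, and 16 without replicate 1, where 6.19% were.

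Among the largest wild-type risers were several with known families. AT3G01830, a calmodulin-like calcium sensor, had log2 values of 6.49, 5.94 and 6.37 in dorn1-1 ATP roots and 7.16, 6.04 and 5.66 in dorn1-1 buffer roots. It had 7.51, 7.63 and 6.79 in Col-0 ATP roots and 5.01, 5.14 and 4.96 in Col-0 buffer roots. The dorn1-1 groups overlapped. The Col-0 groups did not, which was part of the rule that chose the largest risers. Its log2 change in dorn1-1 was -0.02 with all arrays (95% interval -0.74 to 0.70) and 0.42 without buffer replicate 1 (95% interval -0.10 to 0.94), which is 18.4% of the Col-0 change of 2.27.

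CML37, another calmodulin-like sensor, had log2 values of 5.09, 5.35 and 5.14 in dorn1-1 ATP roots and 4.70, 5.08 and 5.06 in dorn1-1 buffer roots. Each dorn1-1 ATP array lay above each dorn1-1 buffer array, the closest pair being 5.09 and 5.08. The dorn1-1 change was 0.24 (95% interval -0.10 to 0.59) and 0.12 without buffer replicate 1, and the Col-0 change was 1.28 (limma adjusted p = 0.00785). AT3G10930, of the family of small secreted IDA-like peptides, changed by 0.22 in dorn1-1 with all arrays (95% interval -0.14 to 0.58), by 0.32 without replicate 1 and by 1.56 in Col-0. Among probe sets listed with exactly 1 gene, the dorn1-1 interval ended below 50% of the Col-0 change for 9 of the 10 largest risers with all arrays, the exception being AT1G19380, and for 7 of the 10 without replicate 1. The largest dorn1-1 change of the risers belonged to a probe set with no gene listed, with log2 values of 6.16, 5.49 and 5.65 in dorn1-1 ATP roots and 5.53, 4.12 and 4.22 in dorn1-1 buffer roots. Replicate 1 of its buffer group lay among the ATP arrays. Its change was 1.14 with all arrays (95% interval 0.38 to 1.91), which is 58.0% of the Col-0 change, and 1.60 without replicate 1 (limma adjusted p = 0.0578).

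The 42 probe sets that fell in Col-0 mostly had a smaller change of the same sign in dorn1-1. The change was negative for 34 of 42 with all arrays and for 38 without replicate 1. Over all 22746 probe sets it was positive for 12752 and 11140. At an unadjusted p under 0.05, 10 of the 42 were lower with all arrays, where 0.875% of all probe sets were, and 13 without replicate 1, where 4.95% were. The median log2 change of the 42 in dorn1-1 was -0.15 with all arrays and -0.24 without replicate 1, against -0.75 in Col-0. This left 19.4% of the Col-0 change for the median probe set with all arrays and 31.2% without replicate 1. The dorn1-1 interval lay wholly nearer 0 than 50% of the Col-0 change for 16 of 42 with all arrays and for 7 without replicate 1. Whether risers and fallers differ in the share they kept was not tested. AT4G30170, a peroxidase, had log2 values of 9.39, 9.53 and 9.28 in dorn1-1 ATP roots and 9.68, 10.04 and 9.83 in dorn1-1 buffer roots. The groups did not overlap, and its change of -0.45 (95% interval -0.75 to -0.14, limma adjusted p = 1.00) was 37.0% of the Col-0 change of -1.21.

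**Figure D2:**
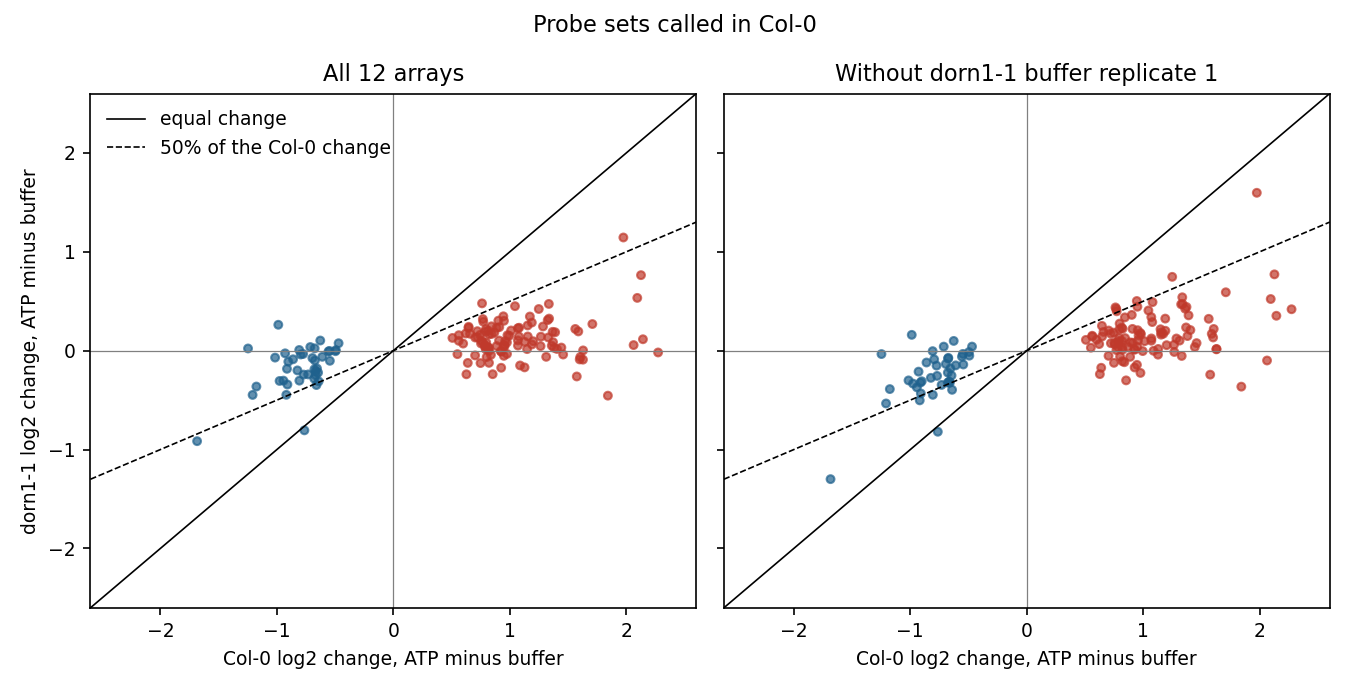
Log2 change of ATP minus buffer in dorn1-1 (y axis) against that in Col-0 (x axis) for the 151 probe sets called in Col-0, 1 point each, with all arrays on the left and without dorn1-1 buffer replicate 1 on the right. Most points lie between the zero line and the dashed line of 50% of the Col-0 change, and the medians of the 109 risers are 0.10 and 0.13.

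The test of the difference between the genotypes named AT5G52760 and AT3G02840. The difference in response (dorn1-1 minus Col-0) was called for 2 of 22746 probe sets (0.00879%) with all arrays and for 3 without buffer replicate 1 (0.0132%). AT5G52760, of the heavy-metal-associated domain family, had log2 values of 5.35, 5.31 and 5.17 in dorn1-1 ATP roots and 5.92, 5.55 and 5.74 in dorn1-1 buffer roots. Col-0 roots had 5.96, 6.14 and 6.02 with ATP and a mean of 4.19 ± 0.17 in buffer (SD, n = 3). The dorn1-1 buffer arrays thus lay above the Col-0 buffer arrays by more than the spread of either group. The difference in response was -2.30 (limma adjusted p = 0.000556), and -2.20 without replicate 1. It stayed called in each alternative in which it was tested, which leaves out the filter on dim probe sets that removes it.

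AT3G02840, an armadillo-repeat protein, had a smaller change in dorn1-1 than in Col-0, and the dorn1-1 change did not pass the adjusted test. Its log2 values were 6.44, 5.96 and 6.36 in dorn1-1 ATP roots and 5.70, 5.72 and 5.74 in dorn1-1 buffer roots, against 7.71, 7.97 and 7.81 in Col-0 ATP roots and 5.70, 5.76 and 5.75 in Col-0 buffer roots. All dorn1-1 ATP arrays lay above all dorn1-1 buffer arrays, and below all Col-0 ATP arrays. The gene was among those chosen by an unadjusted p under 0.05 and non-overlap in dorn1-1, so these 2 traits are a description. The dorn1-1 change was 0.53 (95% interval 0.26 to 0.81, limma unadjusted p = 0.0013, adjusted p = 1.00), which is 25.5% of the Col-0 change of 2.09. The difference in response was -1.56 (limma adjusted p = 0.0215), and its adjusted p lay between 0.0502 and 0.118 when any 1 Col-0 array, dorn1-1 buffer replicate 2 or 3, or dorn1-1 ATP replicate 3 was left out. With the replicate number as a block it was 0.104. Buffer replicate 1 lay with the other buffer arrays for this gene, and the change without it was 0.52 (limma adjusted p = 0.206).

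AT5G60030 had a dorn1-1 change as large as that of the wild type, and AT5G24600 had over 50% of it, though neither passed the test in dorn1-1 with all arrays. Both were among the genes chosen by an unadjusted p under 0.05 and non-overlap in dorn1-1, so their sizes there are a description. AT5G60030 had log2 values of 4.40, 4.74 and 4.23 in dorn1-1 ATP roots and 5.23, 5.32 and 5.23 in dorn1-1 buffer roots. Col-0 roots had 4.57, 4.45 and 4.46 with ATP and 5.13, 5.25 and 5.38 in buffer. The ATP arrays lay below the buffer arrays in both genotypes, and replicate 1 did not deviate. Its dorn1-1 change was -0.81 (95% interval -1.09 to -0.52, limma unadjusted p = 4.5e-05, adjusted p = 1.00), and without replicate 1 it was -0.82 (limma adjusted p = 0.0764). In the fit without replicate 1 it passed with array weights (limma adjusted p = 0.0341), without Col-0 ATP replicate 2 (adjusted p = 0.0404) and without dorn1-1 ATP replicate 2 (adjusted p = 0.0217). The last is the ATP array nearest the buffer arrays for this gene, and the other alternatives run did not call it. The Col-0 change was -0.76 (limma adjusted p = 0.0265), and the difference between the responses was -0.04 (95% interval -0.44 to 0.36). AT5G24600 had log2 values of 5.70, 5.54 and 5.80 in dorn1-1 ATP roots and 5.12, 5.36 and 5.12 in dorn1-1 buffer roots, a change of 0.48 that was 62.8% of the Col-0 change, and 57.5% without replicate 1.

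Among genes whose dorn1-1 groups did not overlap, the lower ones included XTH26, AT5G04960 and AT1G34510. These genes, lower and higher, were the largest changes with an unadjusted p under 0.05 and non-overlap in the same dorn1-1 arrays. Intervals that exclude 0 were therefore fixed by the choice, and the sizes are a description. Over all probe sets, the 3 ATP arrays lay above the 3 buffer arrays for 843 (3.71%) and below them for 409 (1.8%). XTH26, a xyloglucan endotransglucosylase that cuts and rejoins wall polymers, had log2 values of 3.72, 3.77 and 3.46 in dorn1-1 ATP roots and 4.32, 4.77 and 4.22 in dorn1-1 buffer roots. Its change was -0.79 in dorn1-1 (95% interval -1.21 to -0.36, limma adjusted p = 1.00), -0.84 without replicate 1, and -0.71 in Col-0 (limma adjusted p = 0.0895). The pectin methylesterase family gene AT5G04960 had log2 values of 5.27, 4.91 and 5.21 in dorn1-1 ATP roots and 5.64, 6.32 and 5.99 in dorn1-1 buffer roots, a change of -0.85 (95% interval -1.32 to -0.39, limma adjusted p = 1.00). Without replicate 1 it was -1.02.

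The peroxidase gene AT1G34510 had the largest negative change of the named genes, at -0.95 (95% interval -1.57 to -0.33), with log2 values of 4.61, 4.64 and 3.93 in dorn1-1 ATP roots and 5.01, 5.71 and 5.31 in dorn1-1 buffer roots. BIM1, a transcription factor of brassinosteroid signalling, had log2 values of 7.09, 7.11 and 7.27 in dorn1-1 ATP roots and 7.57, 7.72 and 7.83 in dorn1-1 buffer roots, and changed by -0.55 (95% interval -0.84 to -0.26). IQD19, a calmodulin-binding protein, changed by -0.59, and CYP51G2, a cytochrome P450 of the sterol demethylase family, by -0.62. Without replicate 1 the changes were -1.12 for AT1G34510, -0.62 for BIM1, -0.72 for IQD19 and -0.85 for CYP51G2. None of these 4 passed the test in dorn1-1 with or without replicate 1. Of the alternatives run without replicate 1, CYP51G2 passed only with the replicate number as a block (-0.93, limma adjusted p = 0.0315). AT5G04960 passed only when Col-0 ATP replicate 2 was also left out (limma adjusted p = 0.0474). All 10 lower genes named by the rule also had a negative change in Col-0, and 1 of them, AT5G60030, was called there. Over all 22746 probe sets, 10185 had a positive change in Col-0 and 0.185% were called lower.

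Of the 10 higher genes named by the same rule, 9 had a positive change in Col-0 and 2, AT3G02840 and AT5G24600, were called there. Over all 22746 probe sets, 10185 had a positive change in Col-0 and 0.479% were called higher. The mean log2 value over the 12 arrays was under 5 for 5 of the 10 higher genes and for 4 of the 10 lower genes, a range in which RMA compresses differences. AT1G76640, a calmodulin-like protein, had log2 values of 10.64, 10.70 and 10.68 in dorn1-1 ATP roots and 9.57, 10.54 and 10.43 in dorn1-1 buffer roots. Only buffer replicate 1 lay far below the others, and the change of 0.49 with all arrays was 0.19 without it (95% interval -0.13 to 0.50).

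**Figure D3:**
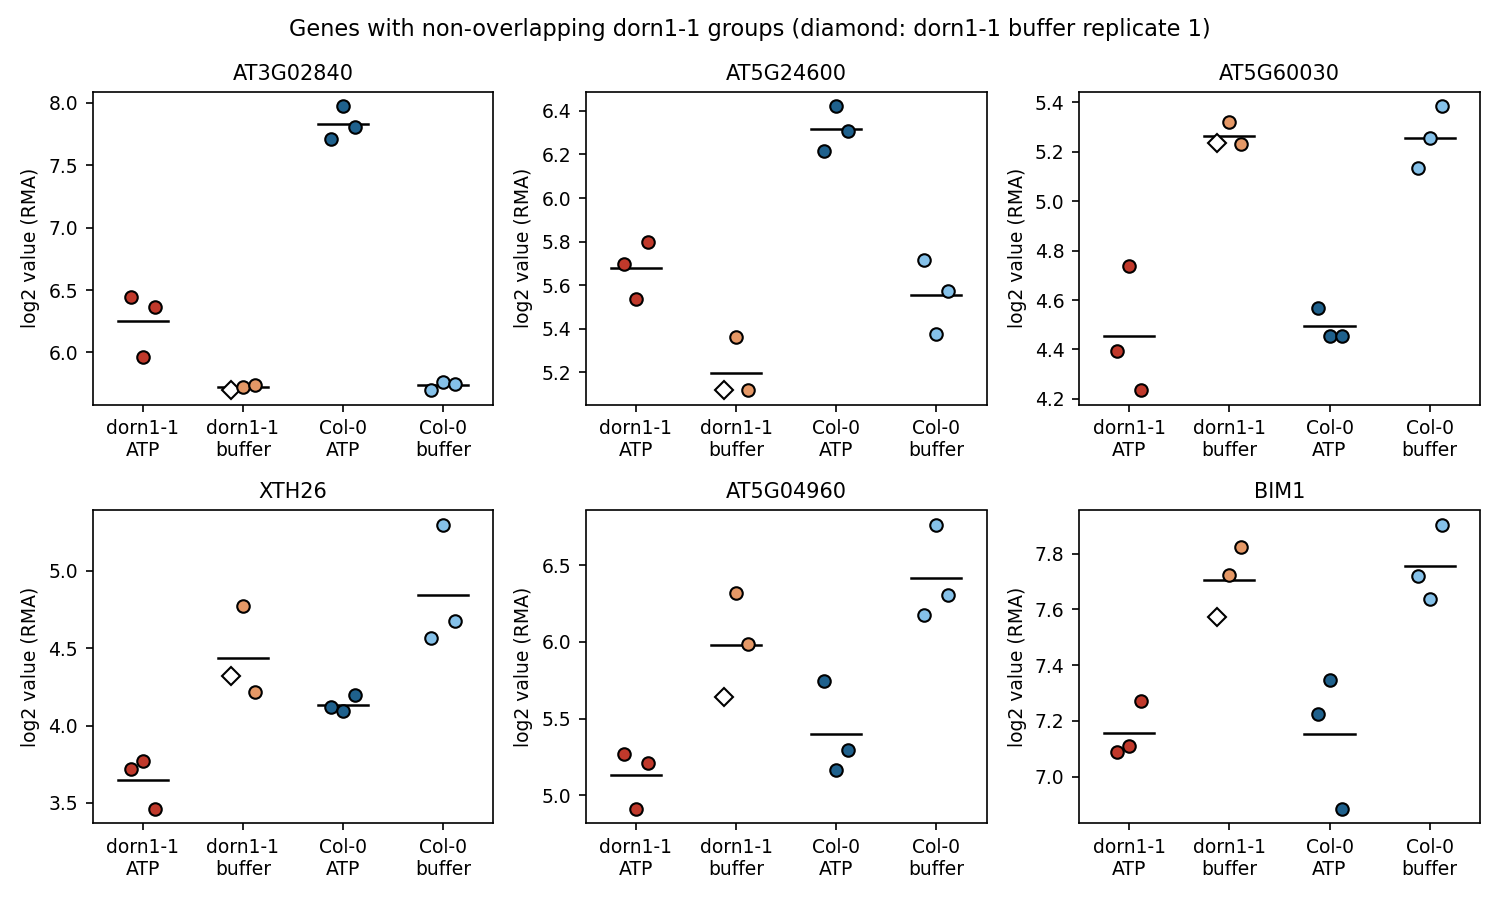
Log2 values on each of the 12 arrays (points) for 6 genes whose 3 dorn1-1 ATP arrays do not overlap the 3 dorn1-1 buffer arrays; lines are group means and the open diamond is dorn1-1 buffer replicate 1. AT3G02840 changes far less in dorn1-1 (0.53) than in Col-0 (2.09), while AT5G60030 changes by -0.81 and -0.76.

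Without buffer replicate 1, 12 probe sets rose in dorn1-1 and 0 fell, of 22746 (0.0528%). At an unadjusted p under 0.05, 1409 were higher (6.19%) and 1127 lower (4.95%). Those of the 12 listed with exactly 1 gene were AT4G22490, of the lipid-transfer protein family, AT5G50335, the subtilase SBT1.3, AT2G33850, AT1G72030 and AOR, an oxidoreductase that reduces reactive alkenals. None of the 12 was called in Col-0, where 11 of 12 had a positive change. Over all 22746 probe sets, 0.664% were called in Col-0 and 10185 had a positive change there. In dorn1-1 without buffer replicate 1, the lowest limma adjusted p among lower probe sets was 0.0668.

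AT4G22490 had log2 values of 7.85, 7.27 and 6.58 in dorn1-1 ATP roots, against 9.08 in dorn1-1 buffer replicate 1 and 3.20 and 4.01 in replicates 2 and 3. Its change was 3.63 without replicate 1 (95% interval 2.70 to 4.56, limma adjusted p = 0.0167) and 1.80 with it (95% interval -0.66 to 4.27). AOR had log2 values of 7.42, 7.46 and 7.41 in dorn1-1 ATP roots, against 7.78 in buffer replicate 1 and 6.32 and 6.45 in replicates 2 and 3. The left-out array was thus above every ATP array for both genes.

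SBT1.3 had log2 values of 7.54, 7.68 and 8.00 in dorn1-1 ATP roots, against 8.53 in buffer replicate 1 and 5.75 and 6.11 in replicates 2 and 3. Buffer replicate 1 lay above all 3 ATP arrays for all 12 probe sets, by a median of 0.824 over the ATP mean and of 2.69 over replicates 2 and 3. The mean of the 12 was 7.39, 7.06 and 7.23 in dorn1-1 ATP roots, and 8.11, 5.06 and 5.08 in dorn1-1 buffer roots. It was 7.76, 7.30 and 8.14 in Col-0 ATP roots and 6.70, 6.68 and 6.56 in Col-0 buffer roots. The calls were made on only 2 buffer arrays, which lay below the Col-0 buffer arrays in this mean, and the count was 0 when replicate 2 or replicate 3 of dorn1-1 buffer, or replicate 1 of dorn1-1 ATP, was left out as well. It was 186 without Col-0 ATP replicate 2, 136 without dorn1-1 ATP replicate 2, 19 without Col-0 ATP replicate 3, 6 without Col-0 buffer replicate 2 and 4 without dorn1-1 ATP replicate 3. Lower probe sets were among the calls in some of these fits, 17 of the 186 and 18 of the 136.

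**Figure D4:**
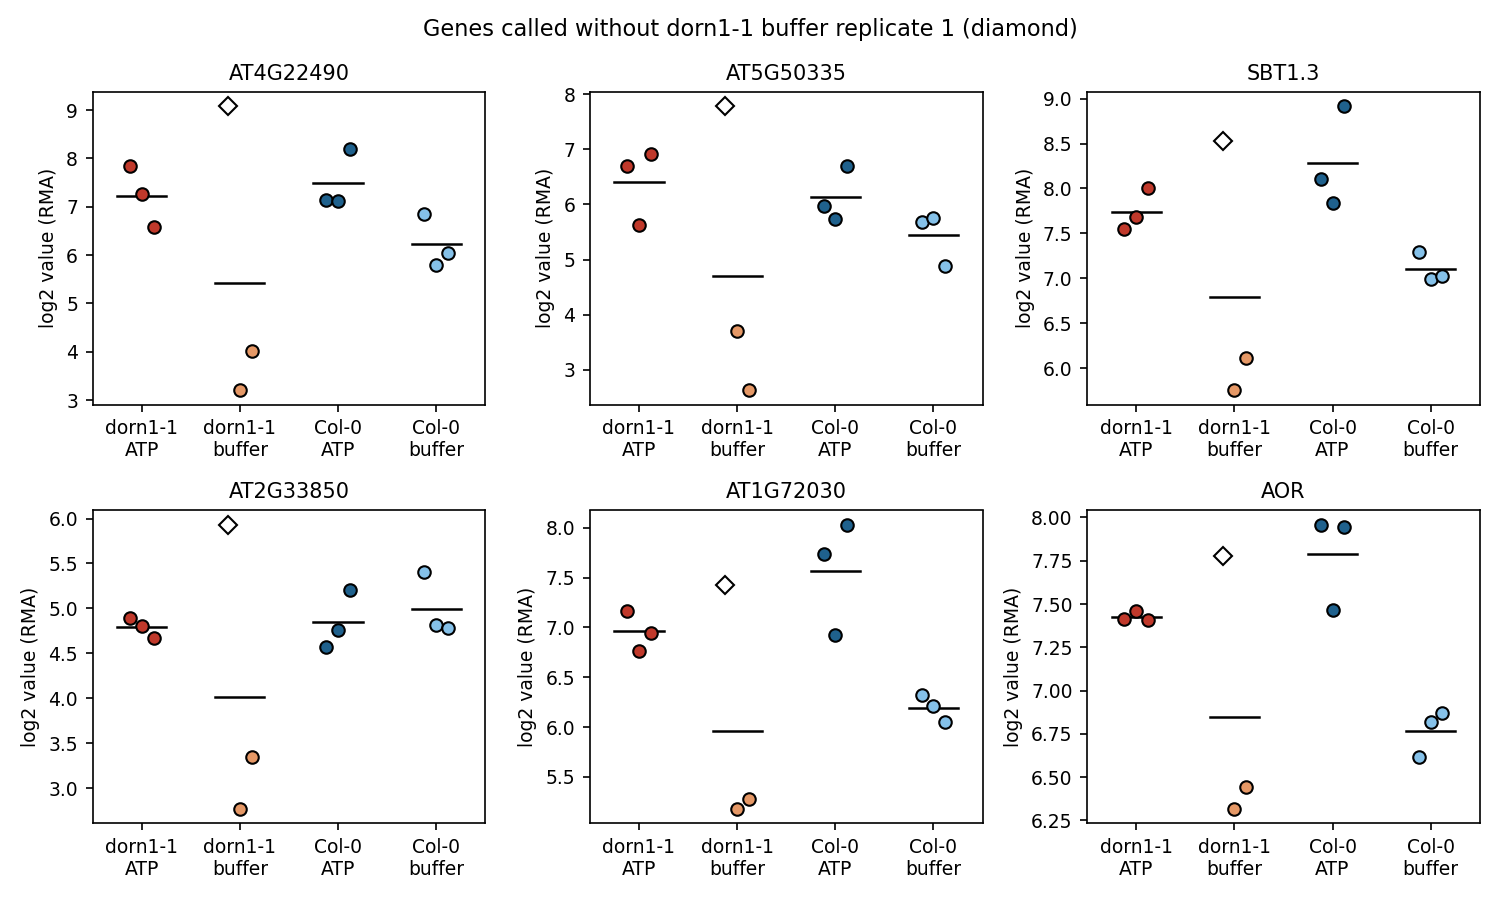
Log2 values on each of the 12 arrays (points) for the 6 named genes called in dorn1-1 without buffer replicate 1; lines are group means of 3 arrays and the open diamond is that array. The diamond lies above all 3 dorn1-1 ATP arrays in every panel, and buffer replicates 2 and 3 lie below them.

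Green-tissue transcripts moved with the same arrays. The mean of the 9 photosynthesis genes was 10.8, 10.0 and 10.6 in dorn1-1 ATP roots and 11.4, 8.57 and 9.93 in dorn1-1 buffer roots. Buffer replicate 1 was the highest of the 6 and replicate 2 the lowest. The difference was 0.486 with all arrays (exact permutation test, two-sided p = 0.6) and 1.21 without replicate 1 (exact p = 0.2), where 3 arrays against 3, or against 2, cannot give less than 0.1. Without dorn1-1 buffer replicate 2 it was -0.218. In Col-0 it was 1.30 (exact p = 0.1). Replicate 1 had the highest mean of the 9 genes in each of the 4 groups. In Col-0 that mean was 11.4 against 10.6 and 11.3 with ATP, and 10.14 against 10.06 and 9.24 in buffer. Without dorn1-1 buffer replicate 1, 8 of the 9 photosynthesis genes were higher in dorn1-1 at an unadjusted p under 0.05, where 6.19% of all probe sets were, and 0 passed the adjusted test.

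Plastid-encoded transcripts followed a similar order. Their mean over the 69 measured of 84 listed genes was 8.68, 7.93 and 8.43 in dorn1-1 ATP roots and 9.11, 7.64 and 7.95 in dorn1-1 buffer roots. Their median change was 0.10 with all arrays and 0.49 without replicate 1, against 0.66 in Col-0. When the mean of the photosynthesis genes entered the limma fit without replicate 1, 0 probe sets were called. The covariate itself differed by 1.21 between the dorn1-1 ATP and buffer arrays of that fit, so green tissue and treatment cannot be told apart there. The part of green tissue in the dorn1-1 response was not tested.

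**Figure D5:**
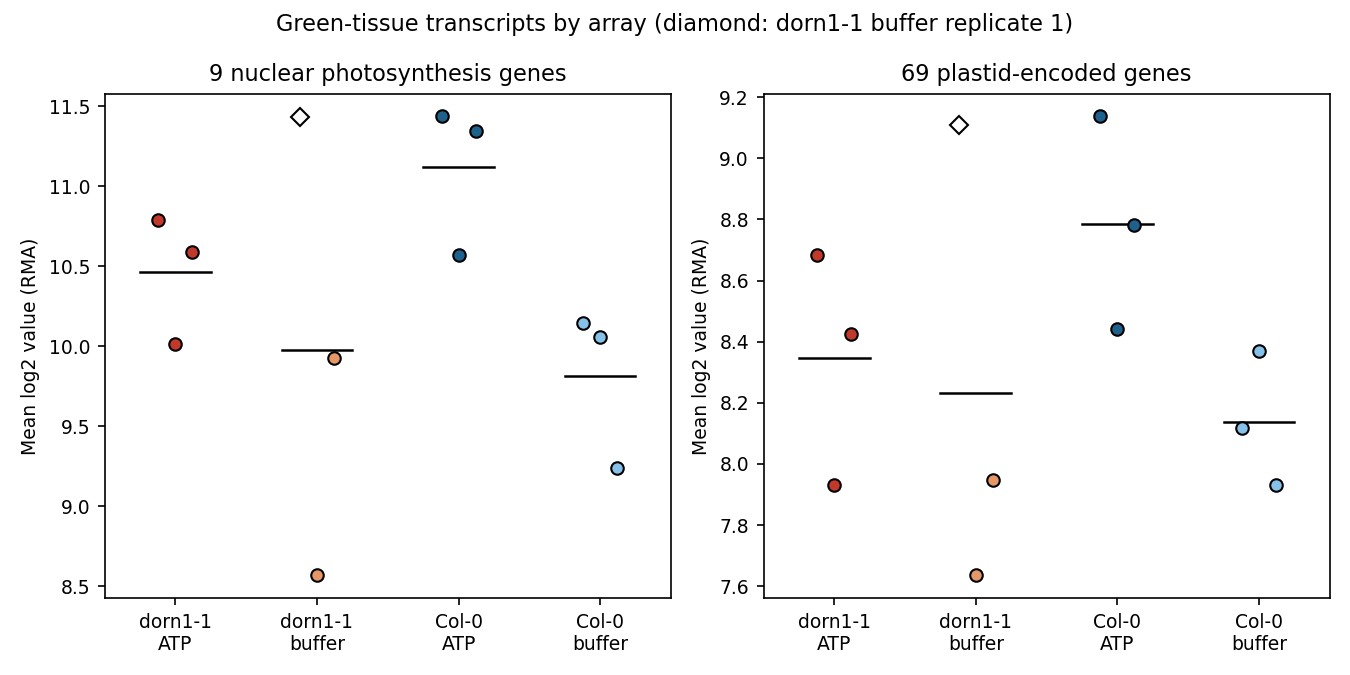
Mean log2 value of 9 nuclear photosynthesis genes (left) and 69 plastid-encoded genes (right) on each array; lines are group means and the open diamond is dorn1-1 buffer replicate 1. That array, at 11.4 and 9.11, is the highest of the 6 dorn1-1 arrays in both panels.

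Of 35 gene lists, 18 had 3 or more measured genes. In dorn1-1, 0 members of these were called by limma with all arrays, where 0.0% of all probe sets were, or without replicate 1, where 0.0528% were. In Col-0, 1 member was called, the calcium sensor CML37, where 0.664% of all probe sets were. The calcium list had 18 of its 105 genes measured. These do not include AT3G01830, a calmodulin-like sensor also called in Col-0 (limma adjusted p = 0.0164), or the calmodulin-like AT1G76640. The 18 measured members of the calcium list are calmodulin-like (CML) sensors and calmodulin-binding IQD proteins. Their median change in dorn1-1 was 0.05. At an unadjusted p under 0.05, 0 were higher and 1 lower (IQD19), where 1.42% and 0.875% of all probe sets were. In Col-0, 6 were higher and 4 lower, where 9.8% and 12.4% of all probe sets were. The 4 lower ones were IQD18, IQD19, IQD28 and IQD31. Without dorn1-1 buffer replicate 1 the dorn1-1 median of the 18 was 0.03, with 4 higher and 1 lower, where 6.19% and 4.95% of all probe sets were. The 9 measured genes of pattern-triggered immunity, of 42 listed, had a median of 0.06 in dorn1-1 with all arrays, 0.15 without replicate 1 and 0.41 in Col-0. In the same order, 7, 5 and 9 of the 9 were positive, and 12752, 11140 and 10185 of all 22746 probe sets were. STZ, a zinc-finger repressor of stress genes, changed by -0.05 in dorn1-1 (95% interval -0.46 to 0.36), by -0.08 without replicate 1 and by 0.90 in Col-0 (limma adjusted p = 0.0559). The 36 measured cell wall genes, of 180 listed, had a median of -0.03 in dorn1-1. At an unadjusted p under 0.05, 1 was higher and 1 lower, where 1.42% and 0.875% of all probe sets were. Without replicate 1 the median of the 36 was 0.05, with 2 higher and 5 lower, where 6.19% and 4.95% of all probe sets were.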

How the data were processed

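The values are RMA expression measures on the log2 scale, as deposited by the authors, who used affy according to the submitters' processing notes. RMA equalises distributions over arrays, which hides a shift common to most transcripts, and it compresses differences near background. Tool versions and joint processing of the 12 arrays: not given in the sources used here. Depth does not apply; the number of arrays limits the precision.

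Each contrast was computed in limma (version 3.58.1, R version 4.3.3) from a model of 4 group means, with empirical Bayes moderation, and Benjamini-Hochberg adjustment over 22746 probe sets at 0.05. Unadjusted p and 95% intervals come from the same fit. The fit was tested on simulated data. Single values per array used exact permutation tests. Figures used matplotlib 3.10.9.

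Genes were named from the platform annotation, for 13513 probe sets with exactly 1 gene, of which 13436 matched the RefSeq table of TAIR10.1. A further 503 list several genes and 8730 are unnamed here. Related genes can share probes. Family roles given for genes are background knowledge. Named genes were the largest dorn1-1 changes, up to 10 per direction, with an unadjusted p under 0.05 and dorn1-1 groups that do not overlap. Genes called without replicate 1 were also named. The 10 largest risers and 5 largest fallers called in Col-0 were taken where the Col-0 groups do not overlap. To these were added the lowest-p member of each list, the 5 genes highest and lowest in replicate 1, and those called in the difference in response. Members and lists were chosen with earlier results of these data known.

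Replicate numbers were not taken as pairs: same-numbered arrays' deviations from their group means correlated above 0.1 in 8 of 18 pairs of groups and numbers (-0.28 to 0.56). Between dorn1-1 ATP and dorn1-1 buffer, the main contrast here, the correlations were 0.48, 0.56 and 0.04 for replicates 1, 2 and 3. Those of replicates 1 and 2 were the highest of the 18. Alternatives were scaling, a filter on dim probe sets, moderation, array weights, a replicate block, a photosynthesis covariate, removal of cross-matching probe sets, and each array left out.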

Additional observations from a re-analysis of the deposited data

Results flagged for a closer look

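The differences in response of 3 probe sets passed the test of the difference itself. AT5G52760 had a difference (dorn1-1 minus Col-0) of -2.30 and AT3G02840 of -1.56 with all arrays. A probe set with no gene listed had a difference of -2.16 without dorn1-1 buffer replicate 1, with log2 values of 6.96, 6.93 and 6.85 in dorn1-1 ATP roots and 6.54, 6.99 and 7.03 in dorn1-1 buffer roots, against 9.05, 9.56 and 9.05 in Col-0 ATP roots and 7.45, 6.84 and 7.18 in Col-0 buffer roots. With all arrays its difference was -2.01 (limma adjusted p = 0.0582).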

How the results depend on the processing

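The count of 0 called probe sets in dorn1-1 with all arrays held under every alternative run except leaving out buffer replicate 1, which gave 12 (range 0 to 12 over single arrays left out). Without that array, the 12 calls became 5 with quantile scaling, 6 with median centring or cyclic loess, 51 with array weights (47 higher, 4 lower), 0 with the photosynthesis covariate, 47 with only dorn1-1 arrays in the fit (46 higher, 1 lower), and 0 to 186 with a further array left out. The difference in response, 2 called, gave 1 with the filter, 6 with array weights, 4 with the covariate and 1 to 3 with 1 array left out; without replicate 1 it was 3, and 1 to 3. The Col-0 count of 151 was 259 with cyclic loess, 228 with trend and robust moderation, 6203 with array weights, 82 with the covariate, 2506 with only Col-0 arrays, and 6 to 2316 with 1 array left out. With the replicate number as a block, the counts were 0 in dorn1-1, 16 without replicate 1 (15 higher, 1 lower), 1 and 1 for the difference, and 447 in Col-0. Left-out arrays moved the median dorn1-1 change of the risers between 0.0546 and 0.192, that of the fallers between -0.237 and -0.0975, and the photosynthesis difference between -0.218 and 1.21. The cause of these changes was not tested. The 12 probe sets called without replicate 1 kept their call in 152 settings and lost it in 98.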

Other observations

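Among probe sets listed with exactly 1 gene, buffer replicate 1 of dorn1-1 differed most from replicates 2 and 3 in AT4G22490, AT5G50335, CCL, AT2G43620 and AT4G18970, in which it was higher, and in AT3G28550, AT3G54580, AT3G59710, AT1G32970 and AT2G22760, in which it was lower. AT3G54580, an extensin-like wall protein, had log2 values of 5.76, 6.32 and 6.18 in dorn1-1 ATP roots and 5.58, 7.30 and 7.08 in dorn1-1 buffer roots, so that replicate 1 lay below every ATP array and replicates 2 and 3 above. Its change was -0.56 with all arrays and -1.10 without replicate 1 (limma adjusted p = 0.0776). Of the 1127 probe sets lower at an unadjusted p under 0.05 without replicate 1, that array was below all 3 ATP arrays in 533, and of the 1409 higher ones it was above them in 878. Over all probe sets it was below all 3 in 35.9% and above them in 18.7%.

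Outside the groups above, WRKY42, a transcription factor, had log2 values of 3.81, 3.90 and 3.58 in dorn1-1 ATP roots and 3.27, 3.51 and 3.37 in dorn1-1 buffer roots. Its mean over the 12 arrays was 3.55, a range in which RMA compresses differences, and its Col-0 change was -0.06. The glutamate receptor-like channel GLR3.5 changed by -0.34 in dorn1-1 and by 0.12 in Col-0. The vacuolar proton pump subunit VHA-A2 changed by -0.27 in dorn1-1 and by -0.06 in Col-0, and none of these genes passed the adjusted test.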
